A study of Mus musculus with 12 samples.

Results

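The genes that give a neuron its fast transmitter were followed in injured mouse spinal cord: the vesicular glutamate transporters SLC17A6, SLC17A7 and SLC17A8, the vesicular GABA and glycine transporter SLC32A1, the GABA-synthesizing enzymes GAD1 and GAD2, and the plasma membrane glycine transporters SLC6A5 and SLC6A9. These 8 genes were chosen by name. Of them, 7 were listed above the lesion, among 13647 gene rows, and the same 7 were listed below it, among 12338 rows. SLC17A8 was listed at neither site.

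Bulk RNA-seq was carried out on spinal cord of male mice aged 4 months that express human ApoE4, at day 14 after a motor-incomplete contusion at thoracic level 9. All 12 libraries come from injured mice and fall into 4 groups with 3 libraries each. The groups were ApoE4 synj1+/+ above the lesion (rostral to the epicenter), ApoE4 synj1+/- above the lesion, ApoE4 synj1+/+ below the lesion (caudal to it) and ApoE4 synj1+/- below the lesion, where synj1+/- mice carry an inactive allele of synj1 beside a normal one. Sham-operated mice and ApoE3 libraries were not analysed here, so all groups share both the injury and the ApoE4 variant. The segments above and below the lesion may come from the same animals.

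The deposited table gives a single value per gene and group that combines the 3 libraries. The spread between libraries is therefore unknown, no test could be made, the depth of each library cannot be read from the table, and every difference below is a description of these combined values. The value of a gene was found to be its FPKM multiplied by the number of its RefSeq transcripts, plus 1. For 97.0% of rows with a single transcript, 94.2% of rows with 2 and 91.3% of rows with 3, taking away 1 and dividing by that number gave back a figure of 6 significant digits in both genotypes. Dividing by a number larger by 1 did so in 48.8%, 14.4% and 12.7%. The share was 74.0% at 8 transcripts, and why it declines was not tested. All 7 listed members divided in this way at both sites. Levels are accordingly given as FPKM, the value less 1 divided by the number of transcripts, so that genes can be compared per length, and genotype differences are given as ratios of the deposited values unless FPKM is named.

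SYNJ1, the gene whose allele was inactivated, was examined first as a check of the labels. Its deposited value above the lesion was 1905 under the synj1+/+ label and 2404 under the synj1+/- label, a ratio of 1.26. The values below the lesion were 1847 and 2593, a ratio of 1.40. SYNJ1 was thus higher at both sites in the groups labelled as carrying the inactive allele, against the labels, and directions below are stated only for the groups as labelled. No FPKM is given for SYNJ1, because its values did not divide by its 34 transcripts.

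Excitatory neurons load glutamate into synaptic vesicles through SLC17A family transporters, and inhibitory neurons load GABA and glycine through the shared transporter SLC32A1. GAD1 and GAD2 make GABA from glutamate, SLC6A5 brings glycine back into glycinergic terminals, and SLC6A9 clears glycine mostly into astrocytes. In the spinal cord SLC17A6 marks most local excitatory neurons, whereas SLC17A7 transcripts belong mainly to neurons with cell bodies outside the cord, such as sensory neurons of the dorsal root ganglia and cortical projection neurons. Inhibitory interneurons of the cord often contain both GABA and glycine.

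Related members could draw reads from each other, so their coding sequences were compared over the longest coding transcript of each gene in GENCODE vM21. The longest stretch shared exactly by SLC17A6 and SLC17A7, whose coding sequences are 72.7% identical, was 21 bases, against reads of 100 nucleotides. SLC17A8, listed at neither site, shared a stretch of 25 bases with SLC17A6. Mismatches over the length of a read were not compared. The 21 bases shared by SLC17A6 and SLC17A7 are printed in capitals with the coding bases on either side, counted from the start codon.
SLC17A6 coding bases 248 to 308: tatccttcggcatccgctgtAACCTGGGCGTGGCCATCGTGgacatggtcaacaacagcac
SLC17A7 coding bases 224 to 284: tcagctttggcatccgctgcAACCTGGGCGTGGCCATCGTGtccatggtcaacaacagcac

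The longest stretch shared by GAD1 and GAD2, at 67.4% identity, was 17 bases, and that shared by SLC6A5 and SLC6A9, at 65.0% identity, was 15 bases. These are shown in the same way for the enzyme pair and the glycine transporter pair.
GAD1 coding bases 1184 to 1240: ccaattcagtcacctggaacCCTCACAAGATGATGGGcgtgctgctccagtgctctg
GAD2 coding bases 1160 to 1216: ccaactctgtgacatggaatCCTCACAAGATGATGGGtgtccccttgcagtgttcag
SLC6A5 coding bases 1445 to 1499: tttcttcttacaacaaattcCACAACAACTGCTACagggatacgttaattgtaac
SLC6A9 coding bases 938 to 992: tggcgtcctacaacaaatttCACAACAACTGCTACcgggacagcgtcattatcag

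The library kit does not mark strand, so reads of a gene on the opposite strand cannot be told apart from those of a member over shared exons. In GENCODE, the antisense transcript Gm14205 covers 24.9% of the exon bases of SLC32A1, and Ccdc24 covers 27.8% of those of SLC6A9. The non-coding gene Gm17114 covers 9.94% of the SLC6A9 exon bases and B4galt2 covers 0.895%. Gm14205 is not listed in the table. The ratio of CCDC24 was 1.03 at each site, and that of B4GALT2 was 0.931 above the lesion and 0.965 below. SLC17A6, SLC17A7, GAD1, GAD2 and SLC6A5 have no overlapping exons in that annotation.

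The levels were described first. SLC17A6 (chr7:51621830-51671126, GRCm38.p6) had an FPKM of 32.2 under the synj1+/+ label and 34.4 under the synj1+/- label above the lesion, and of 30.4 and 36.0 below it. SLC17A7 (chr7:45163921-45176139) was far lower, at 1.28 and 1.77 above the lesion and 0.639 and 2.51 below. SLC17A6 thus carried nearly all vesicular glutamate transporter RNA, and SLC17A7 made up 3.84% and 4.89% of the 2 together above the lesion and 2.06% and 6.53% below. SLC17A8 (chr10:89574020-89621249), which serves a small set of neurons that use glutamate beside another transmitter, has no value.

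**Figure D1:**
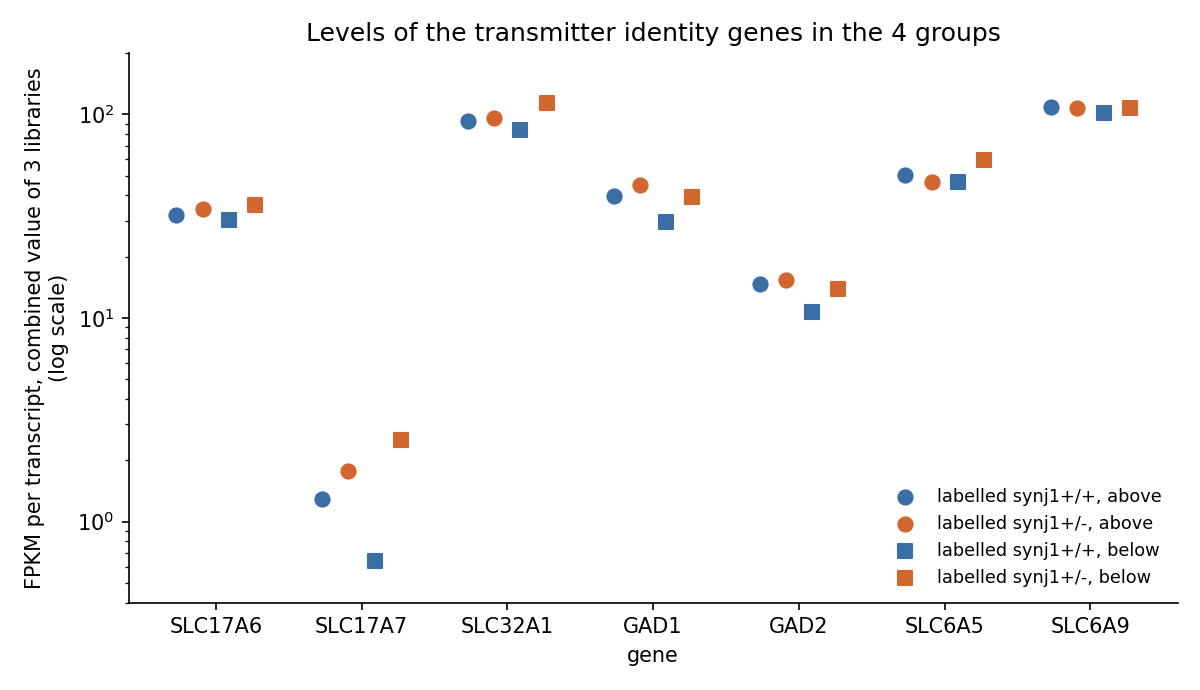
FPKM per transcript (log axis) of the 7 listed transmitter identity genes in the 4 groups; each point is a single combined value of 3 libraries, so there are no error bars. SLC17A7 lies between 0.639 and 2.51, under all other genes, and SLC32A1 and SLC6A9 lie at 83.3 or higher in every group.

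Among the inhibitory genes, SLC32A1 (chr2:158607260-158615747) had an FPKM of 92.5 and 95.4 above the lesion and of 83.3 and 114 below, with the synj1+/+ label given first here and in what follows. GAD1 (chr2:70561303-70602014) stood at 39.5 and 44.9 above and 29.7 and 39.4 below. GAD2 (chr2:22621015-22693877) stood at 14.7 and 15.4 above and 10.7 and 13.8 below. GAD1 was therefore the more abundant enzyme transcript in all 4 groups, at 2.68 to 2.91 times GAD2.

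SLC6A5 (chr7:49906984-49963864), the transporter of glycinergic terminals, had an FPKM of 50.6 and 46.6 above the lesion and 46.6 and 59.8 below, in the same order of groups. SLC6A9 (chr4:117835258-117869305) stood at 109 and 107 above and 102 and 107 below, so the 4 values lay within a narrow range. It was the most abundant member in 3 of the groups, and SLC32A1 exceeded it, by 1.06-fold, below the lesion under the synj1+/- label. The order SLC6A5, GAD1, SLC17A6, GAD2, SLC17A7 followed in both groups above the lesion. GAD1 and SLC17A6 lay only 1.02-fold apart caudally under the synj1+/+ label, where SLC17A6 came before GAD1, and 1.09-fold apart under the synj1+/- label, where GAD1 came first. Whether such neighbours differ beyond the spread of libraries cannot be said from combined values.

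Next, the genotypes as labelled were compared above the lesion, as the ratio of synj1+/- to synj1+/+. Most transmitter genes lay near 1. SLC17A7, at a low level, had a ratio of 1.21 and was the only member at least 1.2-fold higher, 1 of 7, a size that 6.62% of all genes listed at the site reached. None was at least 1.2-fold lower, against 10.5% of all genes. GAD1 had a ratio of 1.13, SLC17A6 of 1.07, GAD2 of 1.05 and SLC32A1 of 1.03. Both glycine transporters lay under 1, SLC6A5 at 0.922 and SLC6A9 at 0.981. The median log2 ratio of the 7 members was 0.07, and that of all genes was -0.0039. Taken relative to the median of the neuron markers, the members' median was -0.021. SLC6A5 lay at -0.20, SLC6A9 at -0.11, SLC32A1 at -0.04 and GAD2 at -0.021. SLC17A6 lay at 0.0077, GAD1 at 0.096 and SLC17A7 at 0.19. None was at least 1.2-fold higher on this scaling, against 3.47% of all genes, and the median of all genes was -0.09.

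Below the lesion, the inhibitory genes stood higher under the synj1+/- label. SLC32A1 had a ratio of 1.37, GAD1 of 1.33, SLC6A5 of 1.28 and GAD2 of 1.28. SLC17A7 had a ratio of 2.14 on the deposited values and 3.93 on FPKM, because the offset of 1 weighs on a low gene, and this ratio rests on an FPKM of 0.639 under the synj1+/+ label. Of the 259 rows below the lesion with an FPKM under 1 in either genotype, 258 stood at 1 or more in the other, so a gene as low as SLC17A7 under the synj1+/+ label was listed through its other value, and its higher ratio is fixed by the listing. SLC17A6 at 1.18 and SLC6A9 at 1.05 stayed under the limit. In all, 5 of 7 members were at least 1.2-fold higher, a size reached by 12.6% of all genes listed at the site, and without SLC17A7 the count was 4 of 6. No member was at least 1.2-fold lower, against 14.9% of all genes. The median log2 ratio was 0.36 for the members, with or without SLC17A7, and 0.014 for all genes, and single ratios exceeded those of 61.6% of genes for SLC6A9, 85.6% for SLC17A6, 93.6% for GAD2, 93.9% for SLC6A5, 95.7% for GAD1 and 97.1% for SLC32A1. When ratios were taken relative to the median of the neuron markers, 2 of 7 members remained at least 1.2-fold higher, SLC17A7 and SLC32A1, against 2.98% of all genes, or 1 of 6 without SLC17A7, and SLC6A9 lay on the lower side. That scaling placed the median of all genes at -0.17.

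**Figure D2:**
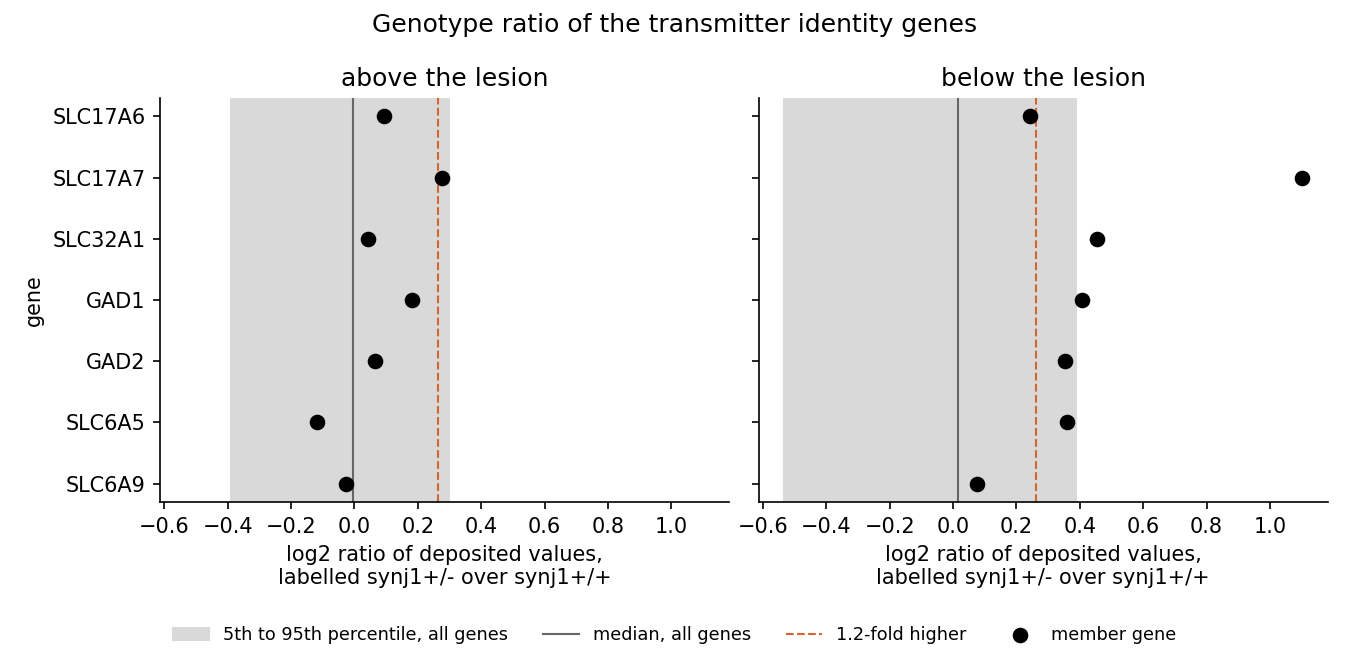
Log2 ratio of deposited values, labelled synj1+/- over labelled synj1+/+, for each listed member (points) above and below the lesion; the grey band spans the 5th to 95th percentile of all genes at the site, the solid line is their median and the dashed line marks 1.2-fold higher. Above the lesion SLC17A7 alone lies past the dashed line, and below it SLC17A7, SLC32A1, GAD1, SLC6A5 and GAD2 do.

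The ratio of the groups was larger below than above the lesion for each of the 7 members. The difference of the log2 ratios, below minus above, was 0.82 for SLC17A7, 0.48 for SLC6A5, 0.41 for SLC32A1, 0.29 for GAD2, 0.22 for GAD1, 0.15 for SLC17A6 and 0.10 for SLC6A9. The value of SLC17A7 depends on the offset, at 1.51 with the offset removed and 0.17 with an offset of 10, where it lies under those of SLC6A5, SLC32A1, GAD1 and GAD2, and it includes the ratio below the lesion that the listing fixed. Its median over the 12025 symbols listed at both sites was 0.022, and 53.9% of these lay above 0. The difference between the sites was not tested.

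Levels above and below the lesion were also set against each other within a genotype. Because reads were reduced and values normalized separately at each site, ratios were centred on the median gene listed at both. After this centring as many genes lie under 1 as over it. In the groups labelled synj1+/+, all 6 members other than SLC17A7 were lower below the lesion, from 0.736-fold for GAD2 and 0.752-fold for GAD1 to 0.945-fold for SLC17A6. SLC17A7 stood at 0.718-fold. SLC32A1 stood at 0.901-fold, SLC6A5 at 0.922-fold and SLC6A9 at 0.935-fold. The share of genes with a lower ratio was 3.58% for GAD2 and 4.34% for GAD1. It was 23.2% for SLC32A1, 28.4% for SLC6A5, 31.8% for SLC6A9 and 34.6% for SLC17A6. In the groups labelled synj1+/-, SLC6A5 stood at 1.26-fold, SLC17A7 at 1.25-fold, SLC32A1 at 1.18-fold and SLC17A6 at 1.03-fold, while SLC6A9 stood at 0.988-fold, GAD2 at 0.884-fold and GAD1 at 0.865-fold. Both GABA enzymes were thus lower caudal than rostral to the lesion in either genotype, and the direction of SLC32A1, SLC6A5 and SLC17A6 differed between the genotypes. The folds of SLC17A7 include the offset of 1. Its FPKM went from 1.28 above to 0.639 below under the synj1+/+ label and from 1.77 to 2.51 under the synj1+/- label. The value of 0.639 was listed only through the other genotype, so nothing is drawn from the directions of SLC17A7.

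Ratios between members within a group share their normalization, so they need no scaling across groups. The summed vesicular glutamate transporters stood at 0.362 and 0.379 of SLC32A1 above the lesion and at 0.372 and 0.337 below. The ratio of this balance between the genotypes was 1.05 above and 0.905 below. The sum includes SLC17A7, whose ratio below the lesion was fixed by the listing. Without SLC17A7 the balance stood at 0.348 and 0.360 above and at 0.365 and 0.315 below. Its ratio between the genotypes was then 1.04 above and 0.864 below. SLC6A5 relative to the summed GABA enzymes stood at 0.932 and 0.773 above the lesion and 1.15 and 1.12 below. Between genotypes this glycine to GABA measure had a ratio of 0.830 above the lesion, where SLC6A5 was lower and GAD1 higher, and of 0.976 below. SLC6A9 relative to SLC6A5 stood at 2.16 and 2.30 above and 2.19 and 1.80 below.

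**Figure D3:**
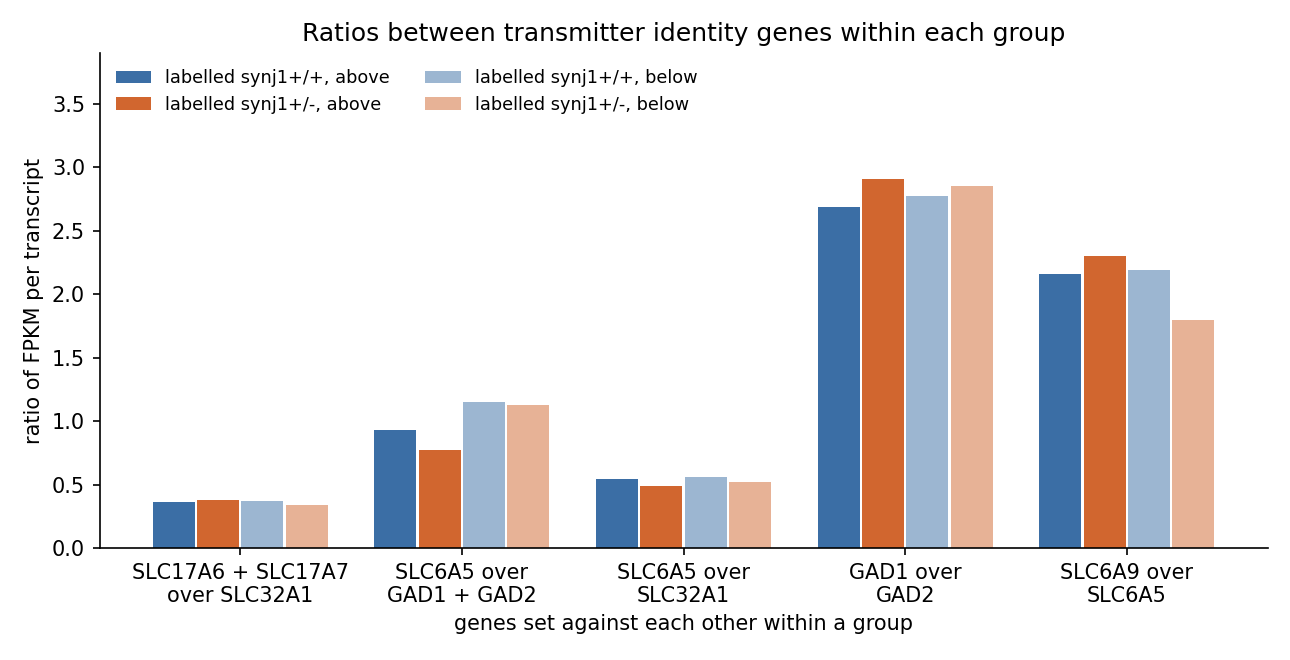
Ratios of FPKM per transcript between members within each of the 4 groups, without error bars because each group holds a single combined value; bars start at 0. The balance of SLC17A6 and SLC17A7 over SLC32A1 spans 0.337 to 0.379, and SLC6A5 over the GABA enzymes spans 0.773 to 1.15.

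Markers of neurons and of other cells in the segment were examined beside the members, since in bulk tissue fewer cells of a type and less RNA per cell cannot be told apart. The counts in this and the following lists stand beside the shares of all genes. At least 1.2-fold higher were 6.62% of all genes above the lesion and 12.6% below, and 10.5% and 14.9% were lower. A count of 1 gene is therefore not read as a result about its list. Of 18 neuron markers, 16 were listed above the lesion, none at least 1.2-fold higher or lower, with a median log2 ratio of 0.09. Below the lesion, 14 were listed, 4 were at least 1.2-fold higher and none lower, with a median of 0.19. Their summed FPKM was 6501 and 6898 above and 6693 and 7672 below. Among markers whose values divided by their transcripts, NEFM was the most abundant above, at an FPKM of 1001 and 976. SNHG11, whose values did not divide, had deposited values of 1576 and 1831 there, and CELF4 had 5286 and 5914. These sums include genes whose values did not divide by their transcripts, 6 of the 16 above and 3 of the 14 below, SNHG11 and CELF4 among them, and the sums of the other lists given include at most 2 such genes at a site. The vesicle release genes SNAP25 and SYT1 had ratios of 1.31 and 1.45 below the lesion, and CELF4, an RNA-binding protein, had a log2 ratio of 0.37. The median of the members below the lesion, 0.36, was higher than that of this list. MAP2 and ENO2 were listed at neither site.

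Markers of inhibitory neuron classes were then examined below the lesion. Of 10, 9 were listed, 7 were at least 1.2-fold higher and 1 was lower, and the median log2 ratio was 0.43. PVALB, a calcium buffer of fast-firing interneurons, stood at an FPKM of 19.2 and 27.3, a ratio of 1.41, and PAX2, a transcription factor of inhibitory interneurons, had a ratio of 1.40. NPY, a peptide of dorsal inhibitory neurons, was the lower one, at 22.6 and 14.3, a ratio of 0.646, and EN1, a transcription factor of ventral inhibitory interneurons, lay near 1, at a ratio of 0.984. Above the lesion 1 of the 9 listed, LBX1 at a ratio of 1.21, was at least 1.2-fold higher, and the median was 0.15.

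Dorsal excitatory markers stood higher at both sites, where SLC17A6 had ratios of 1.07 and 1.18. Of 9 listed at each site, 5 were at least 1.2-fold higher above the lesion and 7 below, none was lower, and the medians were 0.33 and 0.38. The neuropeptide gene SST stood at an FPKM of 133 and 168 above the lesion and 96.9 and 141 below, TAC2 had ratios of 1.34 and 1.58, and CCK had ratios of 1.32 and 1.15, both neuropeptide genes too. TAC1, another, had 1.11 and 1.14. LMX1B, a transcription factor of dorsal excitatory neurons, had a ratio of 1.43 below. PHOX2A was not listed.

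**Figure D4:**
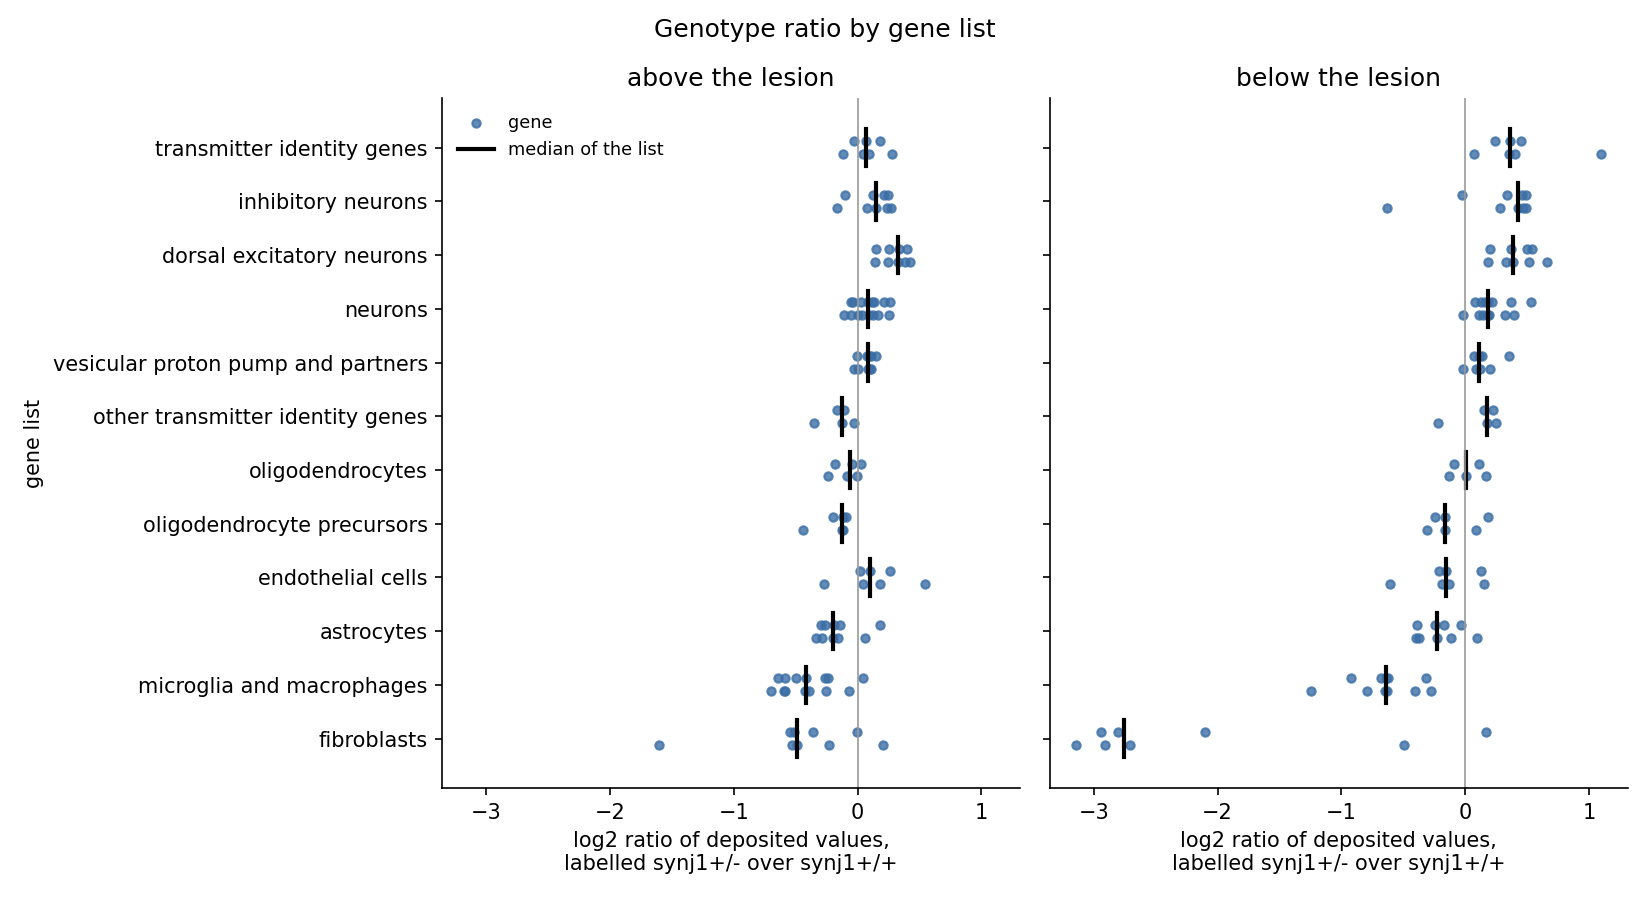
Log2 ratio of deposited values, labelled synj1+/- over labelled synj1+/+, for every listed gene (points) of 12 gene lists above and below the lesion, with the median of each list as a black bar. Below the lesion the medians of the transmitter identity genes (0.36), inhibitory neurons (0.43) and dorsal excitatory neurons (0.38) lie to the right, and those of microglia and macrophages (-0.64) and fibroblasts (-2.76) to the left.

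Many immune and fibroblast markers and some astrocyte markers stood lower under the synj1+/- label, and their part in the result was not tested. Microglia and macrophage markers were at least 1.2-fold lower in 9 of 14 listed above the lesion and in 11 of 11 below, with medians of -0.42 and -0.64. Their summed FPKM was 2322 and 1604 above and 3554 and 2066 below, and LYZ2, the most abundant below, stood at 1100 and 464. The complement gene C1QC had a ratio of 0.639 above the lesion, and the lysosomal gene CD68 had 0.579 below. ITGAM, P2RY12 and TREM2 were not listed below. Fibroblast markers were at least 1.2-fold lower in 6 of 9 above and 7 of 8 below, with medians of -0.49 and -2.76. The count above includes COL3A1, at an FPKM of 4.26 and 0.728, and LUM, at 1.67 and 0.863. All 229 rows above the lesion with an FPKM under 1 in either genotype stood at 1 or more in the other. Both genes were thus listed through their higher value, and their lower ratios are fixed by the listing. COL1A2 and DCN, matrix genes, stood at 74.7 and 10.6 and at 68.8 and 9.39 below the lesion. The summed FPKM of the fibroblast list was 448 and 432 above and 704 and 503 below, mostly THY1, which neurons also express.

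Astrocyte markers were at least 1.2-fold lower in 3 of 10 listed above and 3 of 9 below, with medians of -0.20 and -0.23. GFAP, the intermediate filament of reactive astrocytes, was the most abundant, at an FPKM of 3243 and 2646 above and 2779 and 2121 below, and AQP4 had ratios of 0.818 and 0.759. Ratios over 1 were seen for 2 of the 10 above and 1 of the 9 below. SLC25A18 had 1.13 and 1.07, and S100B had 1.04 above and 0.890 below. The summed FPKM of the list was 4887 and 4191 above and 4439 and 3537 below. SLC6A9, which astrocytes express, lay at ratios of 0.981 and 1.05. None of the listed oligodendrocyte markers, 6 above and 5 below, passed 1.2-fold, MOBP, a myelin gene, had ratios of 0.967 and 0.938, and MBP, CNP and MAG were not listed. The endothelial medians were 0.10 and -0.15, with 2 higher and 1 lower of 7 above and 1 lower of 7 below. Of the oligodendrocyte precursor markers, 1 of 6 was at least 1.2-fold lower at each site, GPR17 at 0.738 above and PDGFRA at 0.808 below. The share of all genes was 10.5% above and 14.9% below. Of 6 Schwann cell markers, 2 were listed above, both at least 1.2-fold higher, and 4 below, 3 of them lower, of which 1 had an FPKM under 1 in one of the genotypes. Above the lesion NCMAP came to an FPKM of 0.936 and 1.82, though its values did not divide by its transcripts. On these figures it was listed through its higher value, so its higher ratio is fixed by the listing.

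The genes that supply and clear the same transmitters had medians near 0. The median log2 ratio was -0.04 above and 0.03 below the lesion for glutamate synthesis and the glutamine cycle, -0.10 and 0.10 for glutamate uptake, 0.0029 and 0.10 for GABA uptake and breakdown, and -0.015 and 0.04 for glycine and serine. In the list of glutamate synthesis and the glutamine cycle, none of 10 listed above the lesion was at least 1.2-fold higher or lower, and below it 1 of 9 was lower and none higher. GLUL, the glutamine synthetase of astrocytes, stood at an FPKM of 699 and 662 above and 776 and 757 below. Of the glutamate uptake list, SLC1A2, the main astrocyte glutamate transporter, had ratios of 0.823 and 0.884. The neuronal transporter SLC1A1 had a ratio of 1.22 below, SLC1A6 had 1.47, and the cystine/glutamate exchanger SLC7A11 had 0.640. In total 2 of 5 were lower above the lesion, and 2 were higher and 1 lower below.

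Of the genes of GABA uptake and breakdown, none of 6 listed above passed 1.2-fold, and 1 of 7 below was lower, the low-level transporter SLC6A13, at an FPKM of 2.95 and 0.941, which was likewise listed through its higher value. In the glycine and serine list, 1 of 10 was higher and 1 lower above the lesion, PSPH, which makes serine, at 1.21 and SRR, the serine racemase, at 0.793. Below it, 2 of 10 were lower, among them PSPH at 0.820, and none was higher. Of the vesicular proton pump, which drives transmitter loading, none of 10 passed 1.2-fold above, and 1 of 8, ATP6V1G2 at 1.28, was higher below, with medians of 0.09 and 0.11. ATP6V0C, the most abundant subunit of that list, stood at 675 and 671 above and 668 and 721 below.

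Transmitter genes of other systems stayed within 1.2-fold below the lesion. Of 11, 5 were listed at each site, and TH, DBH, TPH2 and the plasma membrane monoamine transporters were not. The cholinergic genes, which mark motor neurons, had ratios under 1 above the lesion and over 1 below. SLC5A7, the choline transporter, stood at an FPKM of 21.0 and 19.2 above and 15.0 and 17.0 below. CHAT, at an FPKM of 9.87 and 7.54, was the only gene of the list at least 1.2-fold lower above the lesion. The medians were -0.13 above and 0.18 below.

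Genes with the pattern closest to SLC17A6 and SLC32A1 over the 4 groups were sought among 9286 other genes with every value at 10 or more. Likeness was the root mean square difference of log2 values, each gene centred on its own mean. For SLC17A6 the closest were BMYC (0.0031), ARMC8 (0.0073), ACVR1B (0.0075), PIP4K2B (0.0090) and NMNAT2 (0.010), and 3292 genes lay within 0.1, so this pattern was common. For SLC32A1 they were SLC30A3 (0.017), NAP1L2 (0.017), TRDMT1 (0.021), ANKRD34B (0.021) and PEG13 (0.022), with 868 genes within 0.1. SLC30A3 encodes a zinc transporter of synaptic vesicles. Among the members, GAD1 and GAD2 lay closest to each other, at 0.045, and SLC6A5 was the closest to SLC32A1, at 0.074.

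The 250 bases before an annotated start of each listed vesicular transporter gene were read from RefSeq, GRCm38.p6. These bases were searched on both strands for the E-box CANNTG, the site type bound by basic helix-loop-helix factors that set neuronal transmitter identity. Below the lesion SLC17A6 did not pass 1.2-fold, and the ratio of SLC17A7 was fixed by the listing. GAD1, GAD2 and SLC6A5, which did pass, are not shown. The E-boxes are in capitals, each sequence is on the plus strand, and the windows are chr7:51621580-51621829, chr7:45163671-45163920 and chr2:158610508-158610757.
SLC17A6: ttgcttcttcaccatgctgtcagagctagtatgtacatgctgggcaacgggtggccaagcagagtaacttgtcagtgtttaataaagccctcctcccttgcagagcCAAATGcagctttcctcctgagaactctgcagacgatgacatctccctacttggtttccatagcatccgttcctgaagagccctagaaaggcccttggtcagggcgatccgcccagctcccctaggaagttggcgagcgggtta
SLC17A7: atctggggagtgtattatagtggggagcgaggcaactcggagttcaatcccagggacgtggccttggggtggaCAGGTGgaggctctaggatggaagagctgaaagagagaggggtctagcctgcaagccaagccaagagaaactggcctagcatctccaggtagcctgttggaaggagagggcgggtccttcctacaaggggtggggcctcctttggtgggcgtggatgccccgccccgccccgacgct
SLC32A1: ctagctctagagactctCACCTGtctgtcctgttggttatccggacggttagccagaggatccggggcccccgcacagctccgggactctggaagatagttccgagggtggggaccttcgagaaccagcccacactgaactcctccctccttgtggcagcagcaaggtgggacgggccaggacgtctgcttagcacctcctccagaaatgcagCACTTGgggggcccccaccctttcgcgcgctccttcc

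SLC17A6 and SLC17A7 each hold 1 E-box and SLC32A1 holds 2, and 66.2% of all 32851 promoter windows of this length hold at least 1. The SLC17A7 window also holds 3 copies of the GC box GGGCGG, which 32.7% of windows hold, SLC17A6 holds 1 and SLC32A1 none. The SLC32A1 window precedes a start inside the RefSeq span given above, not the first base of that span, and overlaps an exon of the non-coding gene Gm14204 in GENCODE. Alternative starts, and windows that overlap exons of the member itself, are not shown. A match of letters is a description of the window and says nothing of whether a factor binds there.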

How the data were processed

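Spinal cord RNA-seq libraries (12) were assigned to groups from their labelled genotype and site. The submitters' processing notes name STAR 2.5.4b, Cuffdiff 1.3.0 and the build GRCm38.p6. Per the study's methods, the authors reduced the reads of each site at random to those of its smallest library and applied upper quartile normalization. The deposited values combine the 3 libraries of a group, and each was read from its digits as 1 plus FPKM times the number of RefSeq transcripts. The design had assumed FPKM plus 1, so the division by transcripts was added after the values were seen. The number of transcripts was unknown for 112 rows above and 92 below the lesion. The table also holds the authors' own fold changes, log2 fold changes, p-values and q-values, and a shorter list holds genes at a stricter p-value. None of these was used. There are 0 columns of single samples.

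Ratios were formed from the deposited values, and a gene was counted from 1.2-fold. Beside the members and SYNJ1, genes were named where they passed 1.2-fold at values of 10 or more, at most 3 for each list and site, with the highest-valued gene of each list. SNHG11, CHAT, SLC6A13, TAC1, EN1 and CCDC24 lie outside this rule and were named after their values were seen, and not every gene that meets it is reported here. The members, the lists and the rule were chosen with earlier results of these data known. Alternatives were other folds, scalings and offsets. Python 3.11.15, numpy 2.4.6, pandas 2.3.3, Biopython 1.88 and matplotlib 3.10.9 were used, and the calculations were tested on simulated data. Coding sequences and overlaps came from GENCODE vM21, and gene positions and promoters from RefSeq.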

Additional observations from a re-analysis of the deposited data

How the results depend on the processing

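Each group holds a single combined value, so leaving out each replicate could not be run. No paired analysis was possible because the columns carry no replicate numbers. Each member's log2 ratio was recomputed under 5 other offsets and scalings at each site, and 59 of the 70 values moved by less than 0.1. The scalings shift every gene of a site by the same amount, so they move all members or none. For them this tally therefore says nothing about single members. Relative to the neuron list, every member below the lesion moved, by 0.19. Above the lesion, the count of members at least 1.2-fold higher was 1, and it became 2 at a fold of 1.1, 0 at a fold of 1.5, 0 with an offset of 10, 0 relative to the neuron list and 0 without SLC17A7. Below the lesion, the count was 5, and it became 1 at a fold of 1.5, 3 with an offset of 10, 2 relative to the neuron list and 4 without SLC17A7. The share of all genes past the limit was 19.1% above and 27.5% below at 1.1-fold and 0.791% and 1.16% at 1.5-fold, alternatives chosen after seeing the data, as were the offsets for the median and for the difference between the sites, the share of all genes relative to the neuron list, and the counts and medians without SLC17A7. The median log2 ratio below the lesion was 0.36, and it was 0.26 with an offset of 10 and 0.17 relative to the neuron list. SLC17A7 depended most on the offset, with a log2 ratio below the lesion of 1.98 with the offset removed and 0.23 with an offset of 10, since its level is low. Relative to the neuron list, SLC6A9 below the lesion had a log2 ratio of -0.11. Scaling to the same sum or centring on the median gene left both counts at 1 and 5. Among genes with values of at least 10 in both genotypes, the share at least 1.2-fold higher stayed within 1.5 times that of all genes at both sites. The quotients between genotypes of the ratios between members and the medians below over above the lesion, labelled synj1+/+ and synj1+/-, kept within 0.1 on the log2 scale, except SLC17A7 over SLC17A6 and its share of both, which moved when the values were used as deposited. Division by transcripts does not alter a ratio of 1 gene between groups, but it sets the order of levels and the ratios between members. Without it, above the lesion under the synj1+/+ label, the glutamate transporters over SLC32A1 went from 0.362 to 0.528, GAD1 over GAD2 from 2.68 to 10.7 and SLC6A5 over the GABA enzymes from 0.932 to 1.02.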
